A study of Homo sapiens with 2 samples.

Results

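The TCF12 ChIP-seq data of Hep3B cells were examined for the peaks that lie outside the placed chromosomes of the human build hg19. These are the peaks on unplaced scaffolds (names that begin with chrUn_), on unlocalised scaffolds (names with _random, assigned to a chromosome but not to a position on it) and on alternative haplotypes (names with _hap). Members were chosen by these names alone. There were 393 such peaks among the 64251 in the table (0.612%), on 57 different sequences. Hep3B is an established line of human hepatocellular carcinoma cells. Chromatin of Hep3B cells, for which the labels name no treatment, was precipitated with an antibody against TCF12 to give 1 ChIP library, and genomic DNA of the same line, with no antibody, gave 1 input library. MACS used 10254561 ChIP tags and 8862145 input tags. No peak has a replicate check, so the values below describe these 2 libraries, and each interval covers counting error only.

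TCF12, also called HEB, is a class I basic helix-loop-helix protein (E protein) that dimerises with related factors and binds the E-box, CANNTG. A reference build holds 1 sequence for most of the genome. Alternative haplotypes are extra sequences for places where people differ a lot, such as the major histocompatibility complex (MHC) on chromosome 6, which holds the HLA genes for antigen presentation, and the MAPT region on chromosome 17, which has an inverted form. Unplaced and unlocalised scaffolds hold assembled sequence that could not be put in order, much of it duplicated or repeated. A read that fits several copies cannot be assigned to 1 of them from its sequence, and how such reads were placed is not given in the sources used here. Each value on these sequences is therefore uncertain as to the copy it came from. The sequences of the peaks are not shown, because a genome of hg19 was not used here.

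The 393 peaks were spread unevenly over the 4 kinds of sequence. The 36 unplaced scaffolds held 160 peaks, with a median of 3 per scaffold and at most 16. The 12 unlocalised scaffolds held 94, with a median of 4.5 and at most 22. The 7 MHC haplotypes held 63, between 3 and 18 each. The other 2 haplotypes held 76, of which 73 were on chr17_ctg5_hap1 (the MAPT region) and 3 on chr4_ctg9_hap1 (the UGT2B region, whose genes encode enzymes that add glucuronic acid to steroids and drugs). On 10 sequences a lone peak was listed. Sequences without a listed peak do not appear in the table.

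The strength of a peak is given here by 4 quantities. These are the ChIP reads at the summit, the input background (the highest of a genome-wide level of 0.763 reads, the input reads at the place itself, and the level in windows of 1000 and 10000 bp around it), the fold enrichment (ChIP reads scaled to the input, over the background, with 1 added to both), and the q that MACS derived over the genome. A q of under 1 was reached by 30 of the 393 peaks, 7.63% (exact 95% binomial interval 5.21 to 10.7%), against 0.346% of all listed peaks. In 13 the q was 0.05 or lower, or 3.31% (1.77 to 5.59%), against 0.0887% of all listed peaks. A −log10 p of at least 5 was found for 32 (8.14%, 5.64 to 11.3%), against 0.405%, and a −log10 q of at least 5 for 1, against 0.0187%. By fold enrichment the picture was different. A fold of at least 3 was reached by 147 of the 393 (37.4%, interval 32.6 to 42.4%), against 31.9% of all listed peaks, and a fold of at least 5 by 1, against 0.0794% (51 peaks) of the table. The median fold was 2.54 for the 393 peaks and 2.53 for chromosomes 1 to 22 and X. Peaks on a scaffold share reads and background with their neighbours, so they are not independent observations.

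Most peaks with a q under 1 lay on the unplaced scaffolds, and most of those on 3 of them. A q under 1 is a loose limit, and the highest q among these peaks was 0.796. Of the 160 unplaced peaks, 26 had a q under 1 (16.3%, interval 10.9 to 22.9%). The unlocalised scaffolds had 3 of 94 (3.19%, 0.663 to 9.04%), on 2 of the scaffolds, against 0.346% of all listed peaks. Neighbouring peaks are not independent, so the interval does not test this difference. The haplotypes other than MHC had 1 of 76 (1.32%, 0.0333 to 7.11%). The MHC haplotypes had 0 of 63, which allows a share of up to 4.76%. All 13 peaks with a q of at most 0.05 were on unplaced scaffolds, and 12 of them on chrUn_gl000214, chrUn_gl000224 and chrUn_gl000225. These 3 scaffolds, which were picked out after their values were seen, held 20 peaks with a q under 1 among their 36, and the other 33 unplaced scaffolds held 6 among 124 (4.84%, 1.80 to 10.2%). Without the 3 scaffolds, 10 of the other 357 members had a q under 1 (2.80%), still above the 0.346% of the table.

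The 30 peaks with a q under 1 fell into 2 sets with no overlap in background. In 21 of them the background was between 11.0 and 93.0 reads, with 36 to 175 ChIP reads at the summit and a fold of 1.62 to 3.72. In the other 9 the background was between 0.763 and 2.25 reads, with 10 to 14 ChIP reads and a fold of 3.76 to 5.47. The first set thus had deep input and a low fold, and the second had few reads and a higher fold. This contrast follows in part from the selection by q, since a peak over few input reads needs a higher fold to reach it. A dividing line at 10 input reads was chosen after these values were seen. On that side of the line lay 27 of the 393 peaks (6.87%) and 24 of the 63836 on chromosomes 1 to 22 and X (0.0376%), so that 52.9% of the 51 peaks with such a background were members. Of these 27, 24 were on chrUn_gl000214, chrUn_gl000224 and chrUn_gl000225, and 3 were on other unplaced scaffolds. A q under 1 was reached by 21 of these 27 (77.8%, interval 57.7 to 91.4%) and by 6 of the 24 on chromosomes (25%, 9.77 to 46.7%), with a median fold of 2.09 and 1.76 over all peaks in the band. The same 3 scaffolds gave 20 of the 21, from 24 peaks (83.3%, 62.6 to 95.3%), and the others 1 of 3. Below the line the shares were 9 of 366 (2.46%, 1.13 to 4.62%) and 186 of 63812 (0.291%, 0.251 to 0.336%).

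Deep summits were also concentrated on these 3 scaffolds. At least 20 ChIP reads were at the summit of 28 of the 160 peaks on all unplaced scaffolds (17.5%, interval 12.0 to 24.3%). The same held for 57 peaks on chromosomes 1 to 22 and X (0.0893%). Of the 28, 24 were on chrUn_gl000214, chrUn_gl000224 and chrUn_gl000225, while the other 33 unplaced scaffolds had 4 among 124 peaks (3.23%, 0.886 to 8.05%). None of the 63 MHC, 76 other haplotype and 94 unlocalised peaks reached 20 reads, which allows shares of up to 4.76, 3.95 and 3.19%. Of the 10 peaks with the most ChIP reads in the whole table, 9 were on unplaced scaffolds, and the highest on chromosomes 1 to 22 and X had 94 reads. Ranked by q, 1 of the 10 strongest was on a scaffold, and ranked by fold enrichment 0 of 10.

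The strongest member was on chrUn_gl000214 from 137327 to 137617, rank 3 in the whole table by q. It had 72 ChIP reads at its summit (exact 95% Poisson interval 56.3 to 90.7), or 62.2 after scaling, against 16 input reads at the same place. The scaled ratio was 3.89 (exact interval 2.24 to 7.16), the fold 3.72 and q 2.21e-11. Its fold was the highest among the 21 peaks with deep input. The scaffold had 16 peaks. Of these, 11 had a background of at least 10 reads and lay within 20.2 kb, from 117440 to 137617, with 33 to 89 ChIP reads over 11 to 41 background reads and a fold of 1.49 to 3.72. The other 5 lay before this stretch, with 5 to 16 reads over 1.58 to 6.28. The second peak of the scaffold by q, from 117440 to 117634, had 71 reads against 24 input reads, a ratio of 2.56 (1.59 to 4.25) and q 0.000139. The next, from 125302 to 125543, had 43 reads against 12.7, a fold of 2.79 and q 0.00592.

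On chrUn_gl000224, 7 of 11 peaks formed a run of 14 kb from 5250 to 19238, and all 7 had a q under 1. Their ChIP reads were between 64 and 107 over 25 to 48 background reads, with folds in a narrow range from 1.85 to 2.38. The other 4 peaks of the scaffold had 4 to 13 reads over 0.763 to 3.54. The peak from 11824 to 12317 had 87 reads (interval 69.7 to 107) against 31 input reads, a ratio of 2.43 (1.59 to 3.78) and q 1.77e-05. The peak from 17918 to 19238 was the longest of the 393, at 1321 bp, with 98 reads against 36.7 and q 1.87e-05. Another 3 peaks of the run were among the 10 strongest members by q. They lay from 13729 to 13896 (86 reads against 35, q 0.00285), from 5250 to 6099 (101 against 44, q 0.00323) and from 6348 to 6872 (107 against 48, q 0.00475). The ratios of these 3, between 1.93 and 2.12, were within each other's intervals.

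On chrUn_gl000225, 6 of 9 peaks had a background of at least 10 reads, but they were spread over 103 kb rather than in a run. They had 45 to 112 ChIP reads over 14 to 58.0, with folds of 1.55 to 2.66, and 5 of them had a q under 1. The strongest, from 99266 to 99429, had 108 reads against 49 input reads, a ratio of 1.90 (1.35 to 2.73) and q 0.00597. The deepest of this scaffold, from 134875 to 135070, had 112 reads against 58, a ratio of 1.67 (1.2 to 2.33) and q 0.394.

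The deepest peak of the whole table was on chrUn_gl000220, a scaffold known for its copies of the ribosomal RNA genes. It lay from 101654 to 101860, with 175 ChIP reads (interval 150 to 203) against 93 input reads at the same place, a ratio of 1.63 (1.26 to 2.11), a fold of 1.62 and q 0.00854. By fold it was 64239th of 64251 peaks. With 1 tag kept per position and strand and fragments of 161 bp, 322 reads are the most that 1 base can hold, and 175 are 54.3% of that. The other 3 peaks of this scaffold had 12, 11 and 5 reads over 2.59, 4.00 and 1.66, and q of 1. Whether the deep peak lies inside a ribosomal RNA unit was not analysed here, since an annotation of hg19 was not used.

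The 9 peaks with few input reads were scattered over 7 sequences. The strongest by q was on chrUn_gl000219 from 54093 to 54367, with 10 reads (interval 4.80 to 18.4) over the genome-wide background, a fold of 5.47 and q 0.0563. It was 27th in the table by fold and the 1 member with a fold of at least 5. It opened a group of 5 peaks between 54093 and 58742, of which the other 4 had 3, 8, 6 and 6 reads. chrUn_gl000247 had a peak with 14 reads against 2 input reads (q 0.0828), and chrUn_gl000239 one of 1052 bp with 11 reads against 1.13 (q 0.120). On chr7_gl000195_random there were 2, with 13 and 10 reads (q 0.284 and 0.316). The remaining 4 had 10 to 13 reads and q between 0.316 and 0.796, and were on chr17_ctg5_hap1, chrUn_gl000241, chr4_gl000193_random and chrUn_gl000219. With 10 to 14 reads, each of these peaks has a wide counting interval.

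Member peaks on scaffolds lay closer together than peaks elsewhere. Density was measured as the number of gaps between neighbouring summits per Mb between the outermost summits, for sequences with at least 5 peaks. Sequences with fewer peaks have no such value, which favours high densities. chr7_gl000195_random had 121 per Mb against 31.8 on chromosome 7. chr4_gl000193_random and chr4_gl000194_random had 108 and 74.4 against 15.7 on chromosome 4. chr17_gl000204_random and chr17_gl000205_random had 78.5 and 54.3 against 40.6 on chromosome 17, and chr1_gl000192_random had 42.1 against 27.6 on chromosome 1. All 6 named unlocalised scaffolds were thus above their own chromosome. Their median reads ran from 5 on chr1_gl000192_random to 9 on chr17_gl000205_random. Over all 94 unlocalised peaks the median was 7 reads, against 5 on chromosomes 1 to 22 and X. chr1_gl000192_random had 22 peaks with 4 to 8 reads, chr7_gl000195_random 18 with 3 to 15, chr4_gl000193_random 16 with 5 to 10, chr4_gl000194_random 11 with 4 to 12, chr17_gl000205_random 10 with 4 to 16 and chr17_gl000204_random 5 with 4 to 9. Among the unplaced scaffolds the values ran from 27.6 on chrUn_gl000217 to 330.3 on chrUn_gl000234, where 6 peaks of 7 to 14 reads lay within 15.1 kb. Another peak lay within 1000 bp of 33 of the 94 unlocalised peaks (35.1%, interval 25.5 to 45.6%) and of 51 of the 160 unplaced ones (31.9%, 24.7 to 39.7%), against 13.9% on chromosomes 1 to 22 and X. For the MHC haplotypes this held for 0 of 63. The median background was 1.55 reads on unplaced and 1.05 on unlocalised scaffolds, against 0.789 on chromosomes 1 to 22 and X. Without the 3 scaffolds of deep input, it was 1.04 on unplaced scaffolds, and 35 of those 124 peaks (28.2%, 20.5 to 37.0%) had another peak within 1000 bp. Whether density and background go together over single scaffolds was not tested. As examples, chrUn_gl000221 had 110 per Mb and a median background of 0.805 reads, and chrUn_gl000224 had 69.8 per Mb and 31 reads. The densest, chrUn_gl000234, had a median background of 2.30 reads, and the least dense unplaced one, chrUn_gl000217, had 1.13.

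The remaining unplaced scaffolds with at least 5 peaks had fewer reads, with at most 24 at a summit. chrUn_gl000219 had 15 peaks with 3 to 24 reads and a median of 7. chrUn_gl000218 had 11 peaks with 4 to 11 reads, chrUn_gl000221 had 10 with 3 to 14, chrUn_gl000227 had 8 with 3 to 7, chrUn_gl000241 had 6 with 6 to 18, chrUn_gl000247 had 6 with 5 to 14, chrUn_gl000237 had 5 with 4 to 13 and chrUn_gl000217 had 5 with 5 to 7. On chrUn_gl000227 6 of the 8 peaks were at the genome-wide background, while on chrUn_gl000241 and chrUn_gl000237 none were. The other 22 unplaced scaffolds held 46 peaks, between 1 and 4 each, with at most 40 reads and folds from 1.75 to 4.00. The other 6 unlocalised scaffolds held 12 peaks with at most 10 reads.

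The MHC haplotypes were the sparse end of these sequences and had few reads. Their median fold was 2.53, the same as on chromosomes 1 to 22 and X. Their 63 peaks had a median of 4 ChIP reads, and 60 of them had between 3 and 6. The background was at the genome-wide level for 45 (71.4%, interval 58.7 to 82.1%), against 48.3% on chromosomes 1 to 22 and X, and 36 (57.1%, 44 to 69.5%) had the minimum length of 161 bp, against 37.2%. Density was 2.12 per Mb on chr6_cox_hap2, 2.59 on chr6_dbb_hap3, 3.53 on chr6_qbl_hap6 and 4.52 on chr6_ssto_hap7, against 25.7 over chromosome 6. The fold reached 3 in 23 of the 63 (36.5%, 24.7 to 49.6%), against 31.9% of all listed peaks.

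The haplotypes differed in number and also in fold. The median fold ran from 2.04 on chr6_cox_hap2 to 3.02 on chr6_ssto_hap7. A fold of at least 3 was reached by 2 of 11 and by 11 of 18 of their peaks, against 31.9% of all listed peaks. chr6_ssto_hap7 had 18 peaks with a median of 5 reads, chr6_qbl_hap6 13 with 4, chr6_cox_hap2 11 with 3 and chr6_dbb_hap3 10 with 4. chr6_mann_hap4 and chr6_mcf_hap5 had 4 each, with medians of 5 and 4.5, and chr6_apd_hap1 had 3 with 5. The 2 largest read counts were 13 and 9, and the next was 7. On chr6_mcf_hap5 the peak from 2702964 to 2703187 had 13 reads (interval 6.92 to 22.2) over 2.58, a fold of 3.42 and p 1.68e-05. On chr6_ssto_hap7 the peak from 3984566 to 3984726 had 9 reads (4.12 to 17.1) against 1 input read, a fold of 4.39 and p 1.02e-05. The strongest on chr6_apd_hap1, from 2263101 to 2263261, had 7 reads. Those on chr6_cox_hap2 (763960 to 764121), chr6_dbb_hap3 (2427697 to 2427857) and chr6_mann_hap4 (2309521 to 2309729) had 6 reads against 1 input read. On chr6_qbl_hap6 several peaks tied as the strongest, with 5 reads, and the first by position lay from 1206061 to 1206221. All of them had a q of 1, and these counts have overlapping intervals.

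The placed copy of the MHC was sparse too. From 29 to 33 Mb of chromosome 6, where most HLA genes lie, 8 peaks were listed, with 3 to 6 reads, and 6 of them were at the genome-wide background. The 4 bins of 1 Mb held 1, 2, 4 and 1 summits, and the neighbouring bins 18 (28 to 29 Mb) and 67 (33 to 34 Mb). Of 167 windows of 4 Mb along chromosome 6, moved by 1 Mb, the median held 72 summits and 2 held at most 8. The window from 29 to 33 Mb is itself 1 of these 2. The haplotypes and the window together had 71 peaks. The haplotypes differ in length and reach beyond the window, so this sum describes no single region. In a window from 28 to 34 Mb the count was 93, since its outer parts lie in denser sequence.

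chr17_ctg5_hap1 was unlike the MHC haplotypes in that it had the peak density of a placed chromosome. Its 73 peaks lay between 31130 and 1654706, or 44.4 per Mb against 40.6 on chromosome 17. They had 3 to 10 reads with a median of 5, a median background of 0.966 against 1.00 on chromosome 17, and a median fold of 2.54. A fold of at least 3 was reached by 24 of the 73. Over both haplotypes other than MHC it was 26 of 76 (34.2%), near the 31.9% of all listed peaks. In bins of 200 kb the number ranged from 2 at the far end to 17 between 1000 and 1200 kb. The strongest, from 1213610 to 1214193, had 10 reads (interval 4.80 to 18.4) against 1 input read, a fold of 4.82 and q 0.316. The next 2 peaks, from 1215526 to 1215825 and from 1216156 to 1216353, had 4 and 8 reads.

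On chromosome 17 itself, the stretch from 43.6 to 44.8 Mb, which holds MAPT, had 8 summits, or 6.67 per Mb. It is the longest run of neighbouring bins of 0.2 Mb with at most 3 summits between 42 and 46 Mb, and was picked out after its values were seen. Its 6 bins of 0.2 Mb held 1, 3, 0, 2, 1 and 1 summits, while those from 42 to 43.6 Mb held 6 to 18 and those from 44.8 to 46 Mb held 5 to 14. Of 80 windows of 1 Mb along chromosome 17, the median held 41.5 summits and 7 held at most the 12 of the window from 44 to 45 Mb. That window is itself 1 of the 7. The densities on both sides were 53.1 and 50.0 per Mb. These and the 6.67 are summits per Mb of stretch, while the haplotype value counts gaps between the outermost summits. The summits of chr17_ctg5_hap1 spanned 1623 kb, which is longer than the sparse stretch, so the 2 are not matched regions. The extra sequence of the MAPT region thus had a density of 44.4 per Mb, near that of the flanks on chromosome 17, while the placed stretch was sparse; for the MHC, both the placed window and the haplotypes were sparse. How reads that fit both copies were shared between them was not tested.

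The last haplotype, chr4_ctg9_hap1, had 3 peaks with 5, 5 and 4 reads, all at the genome-wide background. From 69 to 70 Mb on chromosome 4, which holds part of the placed UGT2B genes, 7 summits were listed, against 7 to 25 in the Mb on both sides. The extent of these genes was not looked up, so the Mb beside it may hold others of them.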

How the data were processed

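The authors called peaks with MACS 2.1.2 (single-end, -p 0.05, 1 tag kept per position, tags of 145 bp, fragments of 161 bp) on 1 ChIP library against 1 input library. The effective genome size was 1870000000 bp, the mouse preset, where the human one is 2700000000 bp. The submitters' processing notes also list CASAVA 1.4, Bowtie2 2.0 and Picard 2.19.0, and hg19. The deposited pileup is a signal, ChIP reads at the summit scaled by 0.864 to the input. The deposited fold enrichment is a ratio with a pseudocount of 1 on both terms. The deposited −log10 p-value and q-value were used as they stand, although the header says that q is not calculated.

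Reads at each summit were recovered from the pileup, which gave a whole number within 0.006 for 100% of peaks, and the background from reads and fold. Each background equalled, within 0.001, the genome-wide level, a whole number of input reads at the place, or a multiple of 1 read in a surrounding window. The Poisson −log10 p recomputed from both differed from the listed one by at most 5.26e-05. The recovery was tested on simulated data. Intervals are exact (Clopper-Pearson for shares, Poisson for reads, conditional binomial for ratios), at 95%, and the limit for a count of 0 is 3 counts. Summits are local maxima, so their ratios are biased upward.

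With 1 library per group no test was made. Sequences named were all MHC haplotypes and those with at least 5 peaks or a q under 1, and chr4_ctg9_hap1, added outside this rule as the remaining haplotype. Peaks named were the 10 members of lowest q, ties by p, and the strongest of each MHC haplotype by p, ties by position. Other peaks named were chosen after their values were seen. Members, thresholds and windows were chosen with earlier results of these data known. Tables were handled with pandas 2.3.3 and numpy 2.4.6 in Python 3.11.15, intervals with scipy 1.17.1 and plots with matplotlib 3.10.9.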

Additional observations from a re-analysis of the deposited data

How the results depend on the processing

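The 393 peaks became 147 with a fold of at least 3, 32 with a −log10 p of at least 5, 30 with a −log10 q above 0, 1 with a fold of at least 5 and 1 with a −log10 q of at least 5. They were 415 with chromosome Y. In the same order of thresholds, the 160 unplaced peaks became 58, 26, 26, 1 and 1, the 94 unlocalised peaks 40, 5, 3, 0 and 0, the 76 of the other haplotypes 26, 1, 1, 0 and 0, and the 63 of the MHC haplotypes 23, 0, 0, 0 and 0. Of all listed peaks, the same thresholds kept 31.9, 0.405, 0.346, 0.0794 and 0.0187%. The share with a q under 1 was 9.06% without the fullest sequence (chr17_ctg5_hap1) and 9.09% without the MHC haplotypes. Without chrUn_gl000214, chrUn_gl000224 and chrUn_gl000225, an alternative chosen after seeing the data, it fell from 7.63 to 2.80%, and the share with a q of at most 0.05 from 3.31 to 0.280%. The median background of 1.00 became 1.01 without the MHC haplotypes, and the median of 6 reads did not move. The median fold of 2.54 was 4.32 without the pseudocount and at most 2.92 with the human genome size, since the lower genome-wide level of 0.528 reads applies to the peaks that sit at that level. Among the 10 strongest of the table the members numbered 1 by q or p, 0 by fold and 9 by pileup. The chromosome 6 window held 8 peaks, also by summits, and 93 from 28 to 34 Mb. The 3 scaffolds with most peaks (chr1_gl000192_random, chr7_gl000195_random and 1 of 2 with 16 each) held 56 of the 254 unplaced and unlocalised peaks (22%). Counted over the 29 with a −log10 q above 0, the 3 fullest were a different set, chrUn_gl000214 (16 peaks in all), chrUn_gl000224 and chrUn_gl000225, with 20 (69%). Words of sequence at the peaks (E-boxes, repeats) were not run for want of an hg19 genome. No paired analysis was possible because there was a lone library of each kind. With the MACS cutoff of -p 0.05 and at this depth, a peak of 3 reads can be listed. Single weak peaks are therefore the least certain.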
